A study of Mus musculus with 6 samples.

Results

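The genes described here encode 7 metabotropic glutamate (mGlu) receptors, the G protein-coupled receptors for the transmitter glutamate. They were chosen by name from the 49568 gene names of the data: Grm5 of group I, Grm2 and Grm3 of group II, and Grm4, Grm6, Grm7 and Grm8 of group III. The remaining group I gene is not reported here. RNA was sequenced from neurons of the preBötzinger complex (preBötC), the brainstem site where the inspiratory rhythm originates, in mouse pups of both sexes at postnatal day 2. Every sample pooled 15 neurons that were drawn one at a time into a micropipette, and no animal gave more than 1 sample. The animals were Dbx1CreERT2; Rosa26tdTomato offspring in which tamoxifen allowed Cre to act in cells with an active Dbx1 promoter, so their descendants made the red fluorescent protein tdTomato. The 3 Dbx1 samples held fluorescent neurons. The 3 non-Dbx1 samples held cells judged by eye to be neuronal somata, without fluorescence, from animals of the same genotype. A neuron of the Dbx1 lineage in which recombination had not taken place would lack fluorescence and would count as non-Dbx1.

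An mGlu receptor works through a G protein rather than through a pore of its own. Group I receptors couple to the Gq family, which activates phospholipase C, raises IP3 and releases calcium from internal stores. Group II and group III receptors couple to the Gi/o family, which lowers cyclic AMP and, through its βγ subunits, opens inwardly rectifying potassium channels and holds back presynaptic calcium channels. In respiratory networks group I receptors are known for slow excitation of neurons, and group III receptors for depressing transmitter release from terminals.

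Expression was measured as RPKM, the reads on a gene scaled to its exon length and to the depth of its library, so levels of different genes can be set side by side as far as the exon lengths hold. Between 6464675 and 9432958 reads per sample fell on genes. All 6 neuronal markers examined (Tubb3, Snap25, Syn1, Eno2, Map2 and Rbfox3) were above 0 in every sample, and their summed RPKM ranged from 993 to 1708. Non-Dbx1 replicate 1 stood apart in other cell types. Its 4 haemoglobin genes summed to 13946 RPKM, and its 6 oligodendrocyte lineage markers summed to 247.6 RPKM, against 14.01 to 72.7 in the other 5 samples. The haemoglobin sums also moved with the groups, at 89.6, 218 and 505 RPKM for Dbx1 and 1198 and 732 RPKM for non-Dbx1 replicates 2 and 3. Each of the 4 genes was apart between the groups, with non-Dbx1 higher, unadjusted limma p from 0.00249 to 0.0142 and FDR of 0.708 or more. Of all genes tested, 5.24% were apart in that direction. The part of blood-derived RNA in the receptor values was not tested. Receptor values that turned on non-Dbx1 replicate 1 are given with and without it.

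The 7 genes are paralogues, and the degree to which their transcripts resemble each other sets how well short reads can tell them apart. In the coding sequences of GENCODE vM21 on GRCm38, the 7 pairs within a receptor group shared 67.1% to 71.8% of their aligned bases, and the 14 pairs from different groups shared 56.6% to 62.4%. The longest run of bases common to any 2 of the genes was 35, between Grm4 and Grm6. That stretch is printed below with its closest counterpart in each of the other genes, 5′ to 3′ on the coding strand. Capitals mark bases that differ from Grm4.
Grm4, chr17:27434591-27434625, minus strand: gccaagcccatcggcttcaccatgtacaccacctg
Grm6, chr11:50863196-50863230, plus strand: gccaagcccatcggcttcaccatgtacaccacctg
Grm2, chr9:106647206-106647240, minus strand: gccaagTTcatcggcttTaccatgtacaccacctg
Grm3, chr5:9511513-9511547, minus strand: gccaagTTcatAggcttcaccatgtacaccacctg
Grm7, chr6:111358988-111359022, plus strand: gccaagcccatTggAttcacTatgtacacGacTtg
Grm8, chr6:27363143-27363177, minus strand: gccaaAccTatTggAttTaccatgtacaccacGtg
Grm5, chr7:88074811-88074845, plus strand: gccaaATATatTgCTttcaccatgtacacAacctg
Every copy lay within a single coding exon. Grm2 and Grm3 differed from Grm4 at 3 bases each, Grm7 at 5, Grm8 at 6 and Grm5 at 8. The next longest shared runs were 27 bases between Grm3 and Grm4 and 26 bases between Grm4 and Grm7, and Grm5 shared no run longer than 18 bases with any other member. In windows of 50 bases, Grm4 and Grm6 differed by at least 1 base and every other pair by at least 4. A read confined to the 35 bases that Grm4 and Grm6 share could belong to either, while a longer read would carry bases that separate them.

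Reads were found for 6 of the 7 genes, and for those 6 in all 6 samples, although Grm2 in Dbx1 replicate 2 and Grm8 in non-Dbx1 replicate 3 had 1 read each, under the 3 reads taken here as a detection floor. Grm6 had none. Of the 27067 genes with any reads, Grm3 stood at the 88.3rd percentile of mean RPKM, Grm4 at 87.1, Grm7 at 84.9 and Grm5 at 81.2. Grm2 and Grm8 stood near the middle, at 53.3 and 51.6, where the median gene had a mean of 1.09 RPKM. None of the 6 genes with reads was called between the groups after adjustment over all 17614 genes tested (limma on log2(RPKM + 1), Benjamini-Hochberg FDR from 0.912 to 0.993), against 1 call among all genes, or 0.00568%. The authors' DESeq2 test on counts called several genes at the same FDR threshold of 0.1. The absence of a call here therefore does not show equal levels. At an unadjusted limma p under 0.05 there was 1 of the 6, Grm5, where 5.2% of all genes tested passed, 2.73% with Dbx1 higher and 2.48% with non-Dbx1 higher. The 3 Dbx1 values and the 3 non-Dbx1 values did not overlap for 2 of the 6, Grm5 and Grm8, where 10.6% of all genes tested had groups apart, 5.35% with Dbx1 higher and 5.24% with non-Dbx1 higher. Since each sample pooled 15 cells, fewer expressing neurons and less RNA per neuron cannot be told apart in any of these values.

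**Figure D1:**
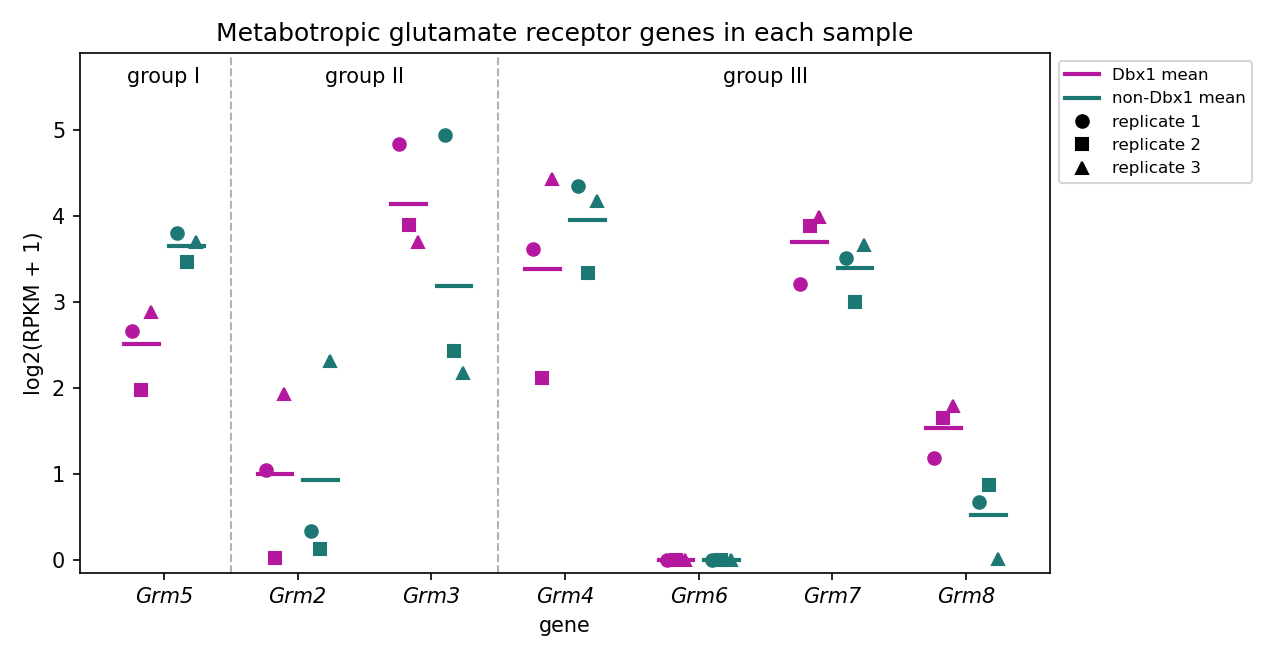
Each point is 1 sample's log2(RPKM + 1) for the gene on the horizontal axis, with circles, squares and triangles for replicates 1, 2 and 3, magenta for Dbx1 and green for non-Dbx1, and bars for the mean of 3 samples. Grm5 was higher in all 3 non-Dbx1 samples and Grm8 in all 3 Dbx1 samples, Grm3 had a high value in 1 non-Dbx1 sample, and Grm6 lay at 0 throughout.

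Grm5 (ENSMUSG00000049583, GRCm38 chr7:87584168-88134907, plus strand) encodes mGlu5, a mostly postsynaptic group I receptor. Its RPKM was 5.33, 2.94 and 6.37 in Dbx1 replicates 1 to 3 and 12.9, 10.02 and 11.9 in non-Dbx1 replicates 1 to 3, the order kept below, and 363 to 1850 reads stood behind a value. The lowest non-Dbx1 value exceeded the highest Dbx1 value. The group means were 4.88 ± 1.76 and 11.6 ± 1.48 RPKM (SD, n = 3 each), a ratio of 2.38 in favour of the non-Dbx1 samples. The log2 fold change (L2FC, the difference between group means of log2(RPKM + 1), positive where Dbx1 was higher) was −1.14 (SE 0.397, 95% confidence interval −2.05 to −0.24). The unadjusted limma p was 0.0193 and the FDR 0.912, and the exact two-sided permutation test gave p = 0.10, and no split of 3 against 3 can give less. The direction held under all 14 alternatives, with L2FC between −1.33 and −0.88. The unadjusted p lay above 0.05 with any of 3 samples left out: it was 0.0696 without Dbx1 replicate 2 (L2FC −0.88), 0.0550 without non-Dbx1 replicate 1 (L2FC −1.07) and 0.0551 without non-Dbx1 replicate 3 (L2FC −1.12). Grm5 was among the steadier genes within groups: of the 4571 genes with a mean of 5 to 20 RPKM, 18.6% had a smaller spread between replicates.

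The carboxyl-terminal tail of mGlu5 carries the ligand motif for Homer proteins, the scaffolds that tie group I receptors to IP3 receptors and to the postsynaptic density. The motif was searched in frame, on the coding strand only, in the 7 coding sequences. It is shown here because the scaffold genes are described further on. Capitals mark the codons of the motif.
Grm5, chr7:88130714-88130743, plus strand: gccctcactCCACCATCGCCCTTCagggac
Grm2, chr9:106651108-106651137, minus strand: cgcaccgtgCCCCCAGACTTCTTCcaagcc
Grm7, chr6:110914396-110914425, plus strand: cgcgtggtcCCACCTGATTCCTTCcaagcc
In Grm5 the match began at codon 1156 of 1203, in the part that encodes the intracellular tail. The matches in Grm2 and Grm7 began at codons 186 and 200, in the part that encodes the extracellular glutamate-binding domain. Grm3, Grm4, Grm6 and Grm8 held none. The motif is not rare, since 6.95% of all 21522 complete coding sequences held at least 1 match, and 13.5% of those between 2500 and 3700 bases long, so a match describes the sequence and is not a binding site by itself.

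The group II gene Grm3 (ENSMUSG00000003974, GRCm38 chr5:9485541-9725170, minus strand) encodes mGlu3, a receptor known from both neurons and glial cells. Dbx1 replicates had Grm3 levels of 27.6, 13.9 and 11.97 RPKM, non-Dbx1 replicates had 29.8, 4.37 and 3.51 RPKM, and the reads behind a value numbered 101 to 669. Non-Dbx1 replicate 1 was the highest of the 6 samples and the other non-Dbx1 samples were the lowest, so the groups overlapped. The highest non-Dbx1 value was 8.49 times the lowest, and 88.0% of genes of like mean (5 to 20 RPKM) had a smaller spread within groups. The means were 17.8 ± 8.53 RPKM for Dbx1 and 12.6 ± 15.0 RPKM for non-Dbx1 (SD, n = 3 each), with an L2FC of 0.96 (SE 0.716, 95% confidence interval −0.68 to 2.60, FDR 0.942, exact permutation p = 0.40).

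Without non-Dbx1 replicate 1, the non-Dbx1 mean of Grm3 was 3.94 RPKM and the Dbx1 mean was 4.52 times as high. Every Dbx1 sample then lay above both remaining non-Dbx1 samples, which were the lowest of the 6. The share of all genes apart in this way, with a non-Dbx1 sample left out, was not determined. The L2FC without it was 1.84 (SE 0.459, 95% confidence interval 0.78 to 2.91), with an unadjusted limma p of 0.00423 and an FDR of 0.739. The sample left out held the highest Grm3 value, so a larger L2FC followed from leaving it out. The p is not independent of that choice. Of the 6 receptor genes, 1 had an unadjusted p under 0.05 in that fit, Grm3, against 5.64% of the 16578 genes tested in it. Grm3 thus met the unadjusted threshold only when non-Dbx1 replicate 1 was left out, and the adjusted one in no fit. With any of the other 5 samples left out, the L2FC lay between 0.46 and 1.18.

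Glial markers in the same samples were set beside Grm3. All 6 oligodendrocyte lineage markers were above 0 in non-Dbx1 replicate 1, among them Mbp, a myelin protein gene, at 155 RPKM, and Olig2, a lineage transcription factor, at 28.1 against 0.048 to 6.92 in the other samples. Mbp was apart by group, at 1.35 to 3.45 RPKM for Dbx1 and 4.52 to 155 for non-Dbx1. Of all genes tested, 5.24% were apart in that direction and 5.35% with Dbx1 higher. Olig1 was at 62.4 RPKM there and at 63.9 in Dbx1 replicate 3, and the myelin gene Mog was at 0.514, below 3 of the other samples. Pdgfra and Cspg4, which mark oligodendrocyte precursors, were at 1.12 and 0.140 RPKM there. The 6 astrocyte markers (Gfap, Aqp4, Aldh1l1, Slc1a2, Slc1a3 and Gjb6) summed to 27.0 RPKM in that sample, within the range of 17.0 to 36.3 over all samples. Its members went opposite ways there, with Aldh1l1 the highest of the 6 samples at 14.4 RPKM, Aqp4 the lowest at 0.030 and Gjb6 at 0. Gfap and Slc1a3 were apart by group in opposite directions. Gfap was at 0.271 to 3.96 RPKM for Dbx1 and 0 to 0.126 for non-Dbx1. Slc1a3 was at 4.18 to 4.54 RPKM for Dbx1 and 4.64 to 11.5 for non-Dbx1. Dbx1 replicate 1, whose Grm3 was nearly as high at 27.6 RPKM, had the lowest astrocyte sum of the 6 samples and an oligodendrocyte lineage sum of 30.2. The 4 microglial markers summed to at most 2.97 RPKM in any sample, with Tmem119 at 0 in all. The 2 endothelial markers summed to at most 1.64 RPKM outside non-Dbx1 replicate 2, where they reached 63.8. The part of these cell types in the Grm3 values was not tested.

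**Figure D2:**
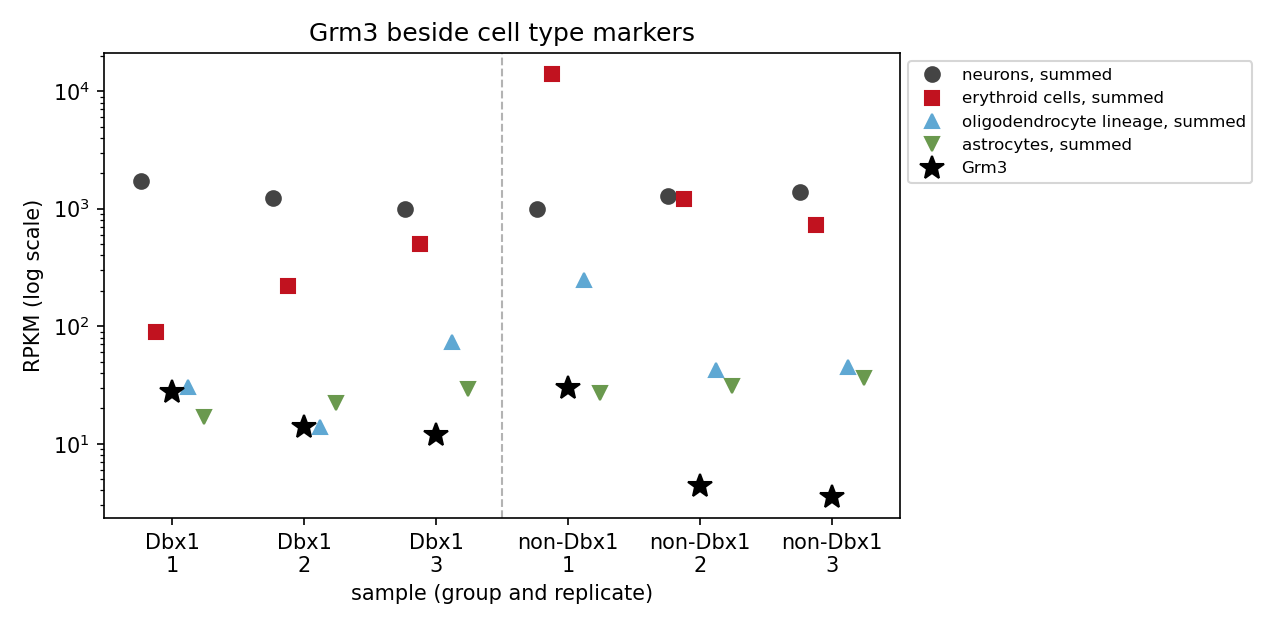
RPKM on a log scale for each sample, with a star for Grm3 and other symbols for the summed markers of neurons, erythroid cells, the oligodendrocyte lineage and astrocytes. Grm3 was high in Dbx1 replicate 1 and non-Dbx1 replicate 1, whereas erythroid and oligodendrocyte lineage sums were highest in non-Dbx1 replicate 1 alone.

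Grm2 (ENSMUSG00000023192, GRCm38 chr9:106643095-106656082, minus strand) encodes mGlu2, the other group II receptor and chiefly a presynaptic one. Dbx1 replicates had 1.07, 0.0173 and 2.79 RPKM, from 65, 1 and 149 reads. The non-Dbx1 samples had 0.262, 0.0915 and 3.97, from 13, 6 and 287 reads. Both groups spanned nearly the whole range, with replicate 3 highest and replicate 2 lowest in each. The means were 1.29 ± 1.40 and 1.44 ± 2.19 RPKM (SD, n = 3 each), and the L2FC was 0.073 with a confidence interval of −1.58 to 1.72 (FDR 0.993, exact permutation p = 1.0). An annotated transcript, Gm28111, overlaps 9.60% of the exon bases of Grm2, and reads there could not be assigned by strand.

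Among the group III genes, Grm4 (ENSMUSG00000063239, GRCm38 chr17:27422387-27521403, minus strand) encodes mGlu4, a presynaptic receptor. Levels were 11.3, 3.32 and 20.7 RPKM for Dbx1 and 19.4, 9.12 and 17.1 RPKM for non-Dbx1, on 169 to 1089 reads. The Dbx1 samples held both the lowest and the highest value. Means of 11.8 ± 8.68 and 15.2 ± 5.39 RPKM (SD, n = 3 each) gave an L2FC of −0.57 with a confidence interval of −1.91 to 0.78 (FDR 0.953, exact permutation p = 0.70). The direction rested on Dbx1 replicate 2, without which the L2FC was 0.073.

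Grm7 (ENSMUSG00000056755, GRCm38 chr6:110645581-111567230, plus strand) encodes mGlu7, a receptor of low glutamate affinity that sits in the active zone of terminals. The 3 Dbx1 values were 8.27, 13.8 and 14.8 RPKM and the 3 non-Dbx1 values 10.5, 7.03 and 11.7 RPKM, on 557 to 1020 reads. It was the most even of the 6 genes over the 6 samples, with the highest value 2.11 times the lowest. The means of 12.3 ± 3.54 and 9.72 ± 2.41 RPKM (SD, n = 3 each) differed by an L2FC of 0.30 (SE 0.367, 95% confidence interval −0.54 to 1.14, FDR 0.960, exact permutation p = 0.40), and the groups overlapped.

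Grm8 (ENSMUSG00000024211, GRCm38 chr6:27275119-28135178, minus strand) encodes mGlu8, a presynaptic receptor of high glutamate affinity. It was low in every sample, at 1.27, 2.13 and 2.46 RPKM for Dbx1, from 137, 218 and 233 reads. The non-Dbx1 samples had 0.591, 0.833 and 0.00779, from 52, 97 and 1 reads. The lowest Dbx1 value exceeded the highest non-Dbx1 value. The means of 1.95 ± 0.617 and 0.477 ± 0.424 RPKM (SD, n = 3 each) stood in a ratio of 4.09, and the L2FC was 1.02 (SE 0.461, 95% confidence interval −0.033 to 2.07). The limma p was 0.0560 before adjustment and the FDR 0.912, with an exact permutation p of 0.10. For a gene this low the pseudocount matters: the L2FC was 2.27 with a pseudocount of 0.1 and 3.54 in the fit on recovered reads, and the FDR stayed at 0.784 or above in every fit. Without non-Dbx1 replicate 3, the sample with 1 read, the L2FC was 0.77 and the unadjusted p was 0.200. The unadjusted p fell under 0.05 in 3 fits, at 0.0236 without the trend, 0.0400 on recovered reads and 0.0459 without Dbx1 replicate 1.

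Grm6 (ENSMUSG00000000617, GRCm38 chr11:50850685-50866208, plus strand) encodes mGlu6, the receptor by which retinal ON bipolar cells sense photoreceptor glutamate. No reads were listed for it in any of the 6 samples. With its annotated exon length, 3 reads would have given 0.0587 to 0.0856 RPKM in a single sample, so levels under that floor could not be called detected. The annotated transcript Gm12660 overlaps 11.05% of its exon bases, where a read could not be assigned with certainty to either gene. The floor takes no account of this overlap. The 10 genes of the retinal mGlu6 cascade gave a mixed picture. Lrit3, Gnb3 and Rgs9bp were at 0 in all samples, and the channel gene Trpm1 did not pass 0.0165 RPKM. Nyx had reads in non-Dbx1 replicate 1 alone, at 0.567 RPKM. The 2 most abundant, Gnb5 with a mean of 26.6 RPKM and Rgs11 with 15.7, encode a G protein β subunit and its RGS partner that also serve other Gi/o-coupled receptors.

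**Figure D3:**
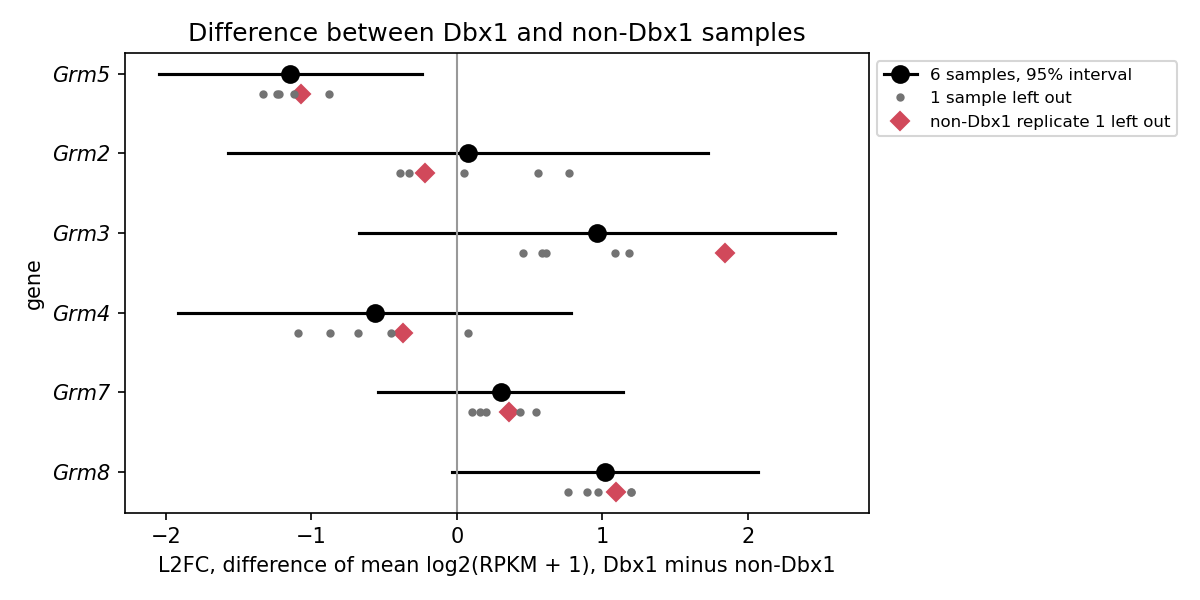
Black points and lines give the L2FC of the 6 genes with reads and its 95% interval, with Dbx1 higher to the right of 0; grey points leave out 1 sample each and red diamonds leave out non-Dbx1 replicate 1. The interval lay below 0 for Grm5 alone, the direction turned with 1 sample left out for Grm2 and Grm4, and Grm3 moved to 1.84 without non-Dbx1 replicate 1.

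Ordered by mean RPKM over the 6 samples, Grm3 (15.2 ± 11.3, SD, n = 6) stood above Grm4 (13.5 ± 6.73), Grm7 (11.02 ± 3.05) and Grm5 (8.25 ± 3.97), followed by Grm2 (1.37 ± 1.65), Grm8 (1.21 ± 0.936) and Grm6 at 0. The first 4 could not be ranked beyond their spread, and without non-Dbx1 replicate 1 the means of Grm3 and Grm4 were both 12.3 RPKM. Grm3 was above Grm4 in 3 of 6 samples, Grm4 above Grm7 in 5 of 6 and Grm7 above Grm5 in 3 of 6, with mean differences of log2(RPKM + 1) smaller than their SD over samples. The step from Grm5 to Grm2 exceeded the spread, at 2.12 ± 1.04 on that scale (SD, n = 6) and in the same direction in 6 of 6 samples. Grm2 and Grm8 did not differ beyond their spread. Grm8 stood above Grm6 in all 6 samples, but in non-Dbx1 replicate 3 by 1 read, under the detection floor. The exon length used also entered this order. The lengths implied by the deposited values were 1.60 times the merged exons of GENCODE vM21 for Grm5, 1.57 times for Grm2 and Grm7 and 1.37 times for Grm8. With the merged exons, the means were 17.3 for Grm7, 15.2 for both Grm4 and Grm3, and 13.2 for Grm5.

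The balance of receptor groups was read as each group's share of the summed RPKM of the 7 genes. Grm5, the one group I gene described, made up 9.73%, 8.14% and 10.8% for Dbx1, against 17.6%, 31.8% and 24.8% for non-Dbx1. These shares did not overlap, with means of 9.55% ± 1.33 and 24.7% ± 7.12 (SD, n = 3 each), and they rest on the Grm5 values given above. Group II genes took 38.6% ± 13.7 of the sum in Dbx1 and 23.6% ± 15.1 in non-Dbx1 samples. The Dbx1 shares were 52.3%, 38.4% and 24.99%, and the non-Dbx1 shares were 41.0%, 14.2% and 15.5%, so the overlap came from non-Dbx1 replicate 1. Without it the group II shares did not overlap, as follows from leaving out the highest non-Dbx1 share. The non-Dbx1 mean was then 14.85% for group II, 28.3% for group I and 56.8% for group III. Group III genes took 51.9% ± 13.2 in Dbx1 and 51.7% ± 9.34 in non-Dbx1 samples. On average, Grm4, Grm7 and Grm8 thus gave about as much signal as the other genes described together. Single samples ran from 38.0% to 64.2% for Dbx1 and from 41.4% to 59.7% for non-Dbx1. With the merged exon lengths the group I share was 12.1% ± 1.85 and 29.7% ± 7.19, and the group III share was 56.0% ± 12.3 and 50.8% ± 6.71.

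**Figure D4:**
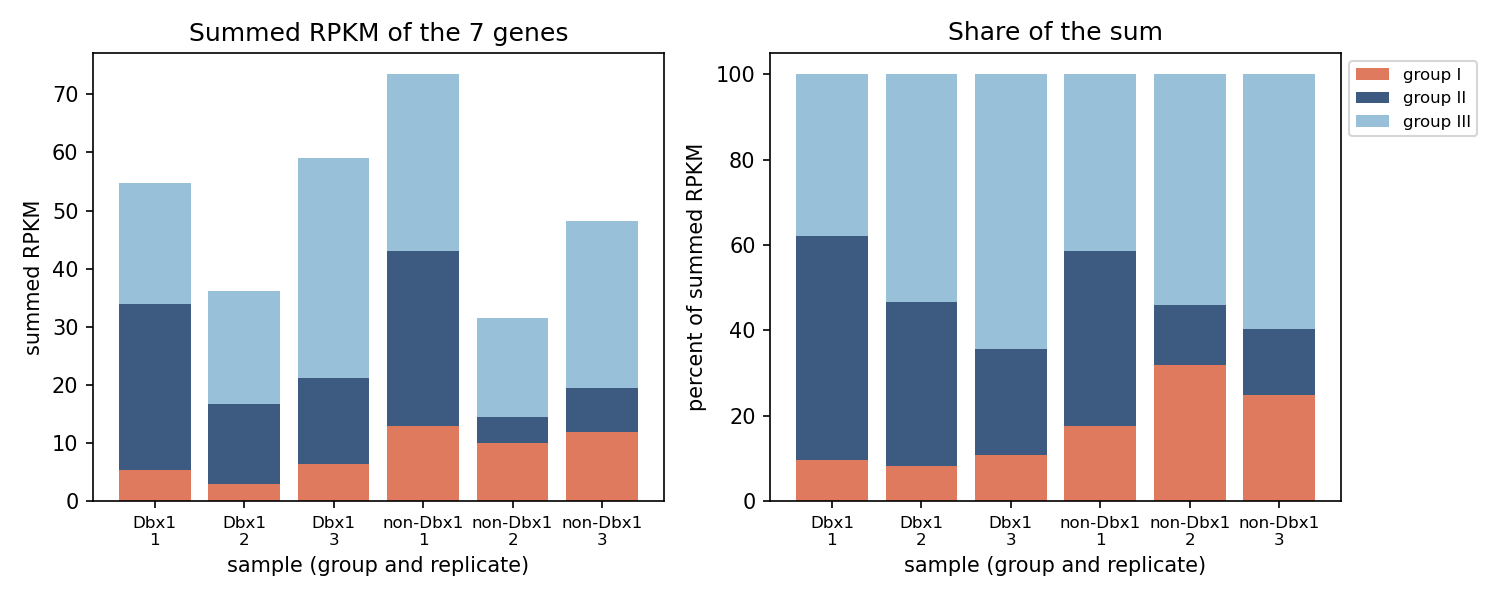
Bars stack the RPKM of the genes of groups I, II and III in each sample, as a sum on the left and as percent of that sum on the right, both from 0. The group I share, which is Grm5, was 8.14% to 10.8% in the Dbx1 samples and 17.6% to 31.8% in the non-Dbx1 samples.

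The genes that carry mGlu receptor signals were read in 7 lists of 76 genes in all, of which 66 were tested. None had an FDR under 0.1. At an unadjusted p under 0.05 there were 3, or 4.55% of those tested, against 5.2% of all genes, and the median L2FC was 0.059 against 0.0089 over all genes. Without non-Dbx1 replicate 1 there were 4 of 65, against 5.64% of the 16578 genes tested in that fit, again with none under the FDR. They were Grk3 and Slc17a6 as before, and Plcb3 (L2FC 1.56, unadjusted p = 0.0251) and Slc1a3 (L2FC −1.03, unadjusted p = 0.0486), both named after their values were seen. Plcb3 encodes a phospholipase C that Gq activates, and Slc1a3 a glutamate transporter of astrocytes. The lists together thus stood close to the background.

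Of 15 genes of Gq signalling, 13 were tested, with L2FC above 0 for 9 and below 0 for 4 and a median of 0.28. The most abundant were Gna11, a Gq-family α subunit, with a mean of 39.95 RPKM, and Prkcb, a protein kinase C, with 30.4. Both overlapped between the groups, with an L2FC of 0.30 for Gna11 and 0.28 for Prkcb, opposite in sign to that of Grm5. Gnaq, the other α subunit of this family in neurons, was chosen after its values were seen. It was the only gene of this list with groups apart, where 5.24% of all genes tested were apart with non-Dbx1 higher. Gnaq levels were 18.8, 19.8 and 19.3 RPKM for Dbx1 and 25.6, 23.2 and 22.8 RPKM for non-Dbx1, groups apart but with an L2FC of −0.29 (unadjusted p = 0.258).

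All 14 group I scaffold genes were tested, with L2FC above 0 for 7 and below 0 for 7 and a median of −0.082. Ncdn, which encodes the mGlu5-binding protein neurochondrin, was the most abundant at 50.03 RPKM, ahead of the ubiquitin ligase gene Siah1a at 18.3. Frmpd4, whose product binds Homer and group I receptors, stood at 0.837, 1.78 and 0.670 RPKM for Dbx1, against 0.0458, 0.0605 and 0.431 for non-Dbx1. Its L2FC was 0.81 (SE 0.333, unadjusted p = 0.0399, FDR 0.912), opposite in sign to that of Grm5, and the unadjusted p was 0.112 without non-Dbx1 replicate 1. The 3 scaffold genes higher in every non-Dbx1 sample than in every Dbx1 sample, named here after their values were seen, were Homer2, Dlgap3 and Dlgap4, where 5.24% of all genes tested were apart in that direction. Homer2 levels were 0.524, 0.867 and 0.563 RPKM for Dbx1 and 2.41, 1.82 and 2.49 RPKM for non-Dbx1, with an L2FC of −0.97 (SE 0.461, unadjusted p = 0.0668, FDR 0.912). Without non-Dbx1 replicate 1 its unadjusted p was 0.0875. For Dlgap3 and Dlgap4 the unadjusted limma p was 0.213 and 0.188. Homer1 and Homer3 overlapped between the groups, with an L2FC of 0.39 and −0.20. Of the Homer genes, Homer1 had the highest mean, at 2.10 RPKM.

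Downstream of groups II and III, 11 of 12 Gi/o signalling genes were tested, with L2FC above 0 for 6 and below 0 for 5. The α subunit gene Gnai1 (mean 78.6 RPKM) and the β subunit gene Gnb1 (61.5) led. Among the potassium channel subunits that βγ opens, Kcnj5 was at 0 in all samples and Kcnj3, Kcnj6 and Kcnj9 had means of 1.04, 0.272 and 1.35 RPKM. The 7 genes for partners of group III receptors had L2FC above 0 for 5 and below 0 for 2. The calmodulin gene Calm2, whose product binds the tails of mGlu7 and mGlu8, had the highest mean (620 RPKM). Pick1, which encodes the scaffold that clusters mGlu7 at terminals and was singled out after its values were seen, stood at 6.63, 6.04 and 6.37 RPKM for Dbx1, against 4.17, 5.33 and 3.55 for non-Dbx1 (L2FC 0.47, unadjusted p = 0.287).

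The 10 desensitisation genes, which encode receptor kinases, arrestins and RGS proteins, had L2FC above 0 for 4 and below 0 for 6. Rgs4 (mean 41.3 RPKM) and Grk6 (26.8) were the most abundant. Grk3, a receptor kinase gene, stood at 1.84, 4.55 and 3.84 RPKM for Dbx1, against 11.7, 13.5 and 6.87 for non-Dbx1. The groups were apart in the same direction as for Grm5, with an L2FC of −1.42 (SE 0.468, unadjusted p = 0.0155, FDR 0.870), and −1.33 without non-Dbx1 replicate 1. Of 8 genes for glutamate supply and clearance 6 were tested. The vesicular transporter gene Slc17a6 had the highest mean (51.8 RPKM) and an L2FC of 1.44 (unadjusted p = 0.0138, FDR 0.870), opposite in sign to that of Grm5.

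**Figure D5:**
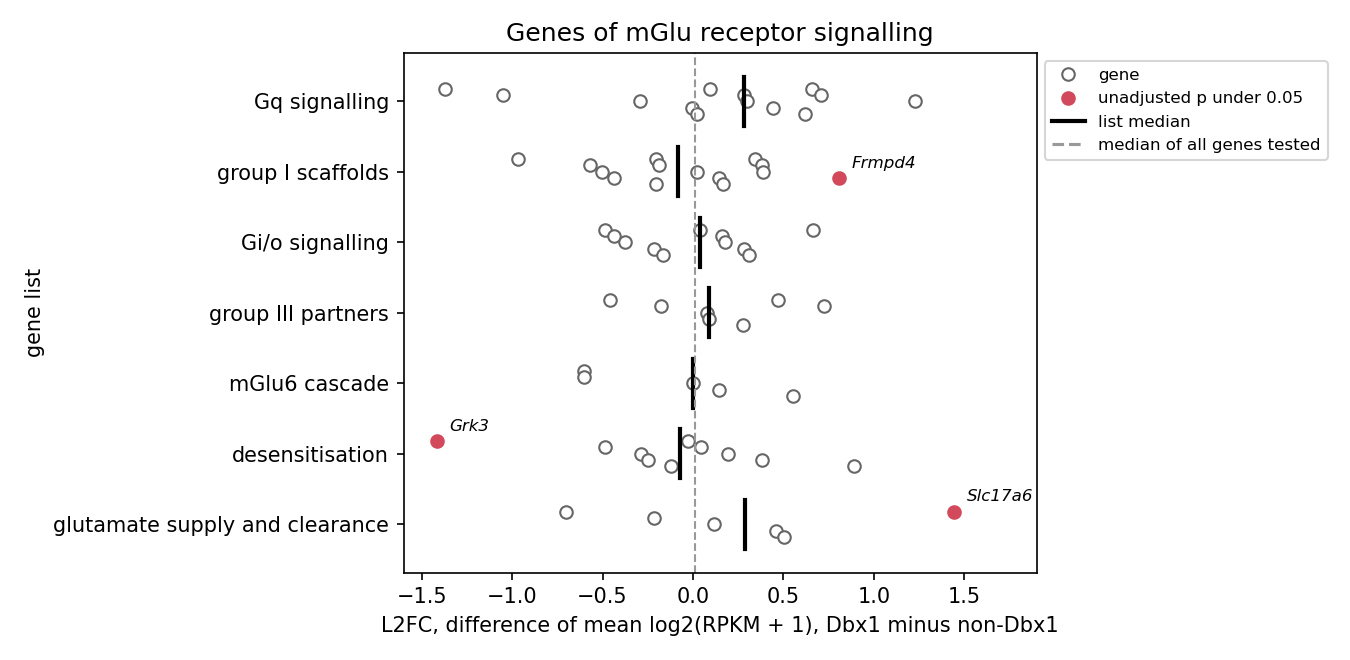
Each open circle is the L2FC of 1 gene in the list named at the left, with Dbx1 higher to the right, black bars are list medians, the dashed line is the median of all genes tested, and red points are genes with an unadjusted p under 0.05. Grk3, Frmpd4 and Slc17a6 were the 3 red points, none with an FDR under 0.1.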

How the data were processed

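The authors made complementary DNA from 15 neurons per sample, built Nextera libraries, aligned the reads with TopHat2 to mm10 (GRCm38) and counted them per gene name with HTSeq, without strand. The deposited values are RPKM, 1 per gene name and sample, with no scaling between samples. The Ensembl release behind the exon lengths is not given in the sources used here. Reads per sample (6464675 to 9432958) were recovered from the steps between RPKM values. Reads on each gene came from the merged exon length of GENCODE vM21 where that gave whole numbers, as for Grm3. This held for 36.1% of the names with reads. For the other names with reads they are the lowest whole numbers that fit the values. Floors cover counting error only, since amplified reads are not independent molecules.

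Values were tested as log2(RPKM + 1) with limma 3.58.1 (eBayes with trend) in R 4.3.3, over genes non-zero in 3 or more samples, two-sided, at an FDR of 0.1, and by exact permutation. The authors tested counts with DESeq2. Recovered reads entered 1 alternative fit (voom) and not the main test. The fit was tested on simulated data. The members, gene lists and markers were chosen with earlier results of these data known. From each signalling list the text names the 2 genes of highest mean RPKM and all with an unadjusted p under 0.05, and other list genes as stated there. Some genes that this rule selects are not reported here. Marker genes are named as their lists hold them. For the member of highest mean RPKM in each receptor group, the 3 genes most like it over the samples are named. Positions, overlaps and coding sequences came from GENCODE vM21, which held 47214 of the names (95.3%). Nucleotide identity replaced the planned protein identity, for which no table was used here. Other values came from Python 3.11.15 with numpy 2.4.6, pandas 2.3.3, scipy 1.17.1, Biopython 1.88 and matplotlib 3.10.9. Alternatives are described in the closing section.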

Additional observations from a re-analysis of the deposited data

How the results depend on the processing

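The 14 alternatives for each receptor gene were a pseudocount of 0.1, a looser filter (reads in any 1 sample), a stricter one (3 samples reaching 1 RPKM), size factors by median of ratios, limma without trend, a replicate block, each of the 6 samples left out, voom on recovered reads, and the log2 ratio of group mean RPKM. No receptor gene had an FDR under 0.1 in any of the 13 fits. The directions of Grm3, Grm5, Grm7 and Grm8 held in all 14. For Grm2 the L2FC ran from −0.39 to 0.77 with 1 sample left out (−0.39 without Dbx1 replicate 3, −0.22 without non-Dbx1 replicate 1 and −0.33 without non-Dbx1 replicate 2), and was −0.30 with voom and −0.16 as the ratio of means. For Grm4 it ran from −1.09 to 0.073 over the same fits, and was 0.073 without Dbx1 replicate 2. The cause was not tested. Over all genes the number of calls, 1 with non-Dbx1 higher, became 0 with a pseudocount of 0.1, with the looser filter and with voom, 3 without trend, and 0 to 1 with 1 sample left out, where the 1 call without non-Dbx1 replicate 2 was a gene with Dbx1 higher.

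The replicate numbers of the labels gave no sign of pairing. Deviations of same-numbered samples correlated at −0.107, 0.0248 and −0.0522 across genes, against −0.0824 to 0.133 for differently numbered ones. With 3 samples a group, such correlations cannot exclude a shared litter or day. With the number as a block, 0 genes had an FDR under 0.1 (819 at an unadjusted p under 0.05), and no receptor gene changed its call.

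Ordering by the median instead of the mean changed the rank of 4 receptor genes, and the merged exon length, added after seeing the data, of 2, with means of 13.2 RPKM for Grm5 and 17.3 for Grm7. With 3 samples a group, and 1 read behind some values of Grm2 and Grm8, the intervals of the L2FC were wide.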

Other observations

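The genes whose log2(RPKM + 1) most closely followed the member of highest mean RPKM in each receptor group are given as a description. Grm5 was the only group I gene described, and Grm4 and Grm7 could not be ranked beyond their spread. Over the 6 samples, and among the genes with a mean of at least 10 RPKM, those with the highest Pearson r to Grm5 were Mt3 (0.992), which encodes the metallothionein known from the brain, Prcc (0.987) and the pseudogene Cd63-ps (0.982). For Grm3 they were Faf1 (0.989), Actr6 (0.974) and Abcf1 (0.969). For Grm4 they were Igsf21 (0.985), Clstn3 (0.984), both of which encode synaptic adhesion proteins, and D2Bwg1423e (0.976). These were the highest of 4424 or 4425 candidate genes over only 6 points, which are libraries of their own depth and cell make-up.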
